A study of Mus musculus with 12 samples.

Results

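Expression of 10 genes of lipolysis and fatty acid oxidation was examined in the hypothalamus of mice with diet-induced obesity. The genes are Pnpla2, Lipe and Abhd5 of lipolysis, Plin2 and Plin3 of the lipid droplet coat, Cpt1a, Cpt1c and Cpt2 of the carnitine system, Acadm of mitochondrial β-oxidation, and the nuclear receptor gene Ppara. They were chosen by name, and each matched 1 of the 78334 gene IDs in the count table. All 10 had at least 10 reads in total. The 12 libraries came from male C57BL/6 mice that were 8 weeks old at the start. Control mice (C, 3 libraries) ate standard chow and received vehicle by gavage, and mice with obesity (Ob, 3 libraries) received vehicle after a high-fat diet (HFD) with 60% of its energy from fat. The other mice on the HFD were gavaged daily with resveratrol at 2.25 mg/kg (Ob + RSV, 3 libraries), 200 mg/kg of aged garlic extract (Ob + EAE, 2 libraries) or curcumin at 50 mg/kg (Ob + CUR, 1 library). Gavage lasted 28 days and started at 16 weeks of age, after 8 weeks of the diet. The sources used here differ on whether the HFD went on during the gavage. Obesity in this model comes from diet and not from a mutation, and each library is the whole hypothalamus of 1 mouse rather than a cell type.

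Lipolysis releases fatty acids from the triglycerides stored in lipid droplets. ATGL, the product of Pnpla2, takes off the first fatty acid with the help of its coactivator CGI-58 (Abhd5), hormone-sensitive lipase (Lipe) acts next, and perilipins such as Plin2 and Plin3 coat the droplet and limit access to it. Long-chain fatty acids then enter mitochondria through CPT1 at the outer membrane and CPT2 at the inner membrane, and acyl-CoA dehydrogenases such as Acadm begin their oxidation. In the brain most of this oxidation is placed in astrocytes, whereas CPT1C is a neuronal isoform of the endoplasmic reticulum with little enzymatic activity. PPARα (Ppara) binds fatty acids and switches on genes of the pathway by binding, with RXR, to repeats of the hexamer AGGTCA.

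The 250 bases before the annotated start of 4 genes are shown, because, among the genes with over 1000 reads, Pnpla2 varied most between libraries and the other 3 were those whose Ob + EAE and Ob libraries did not overlap. In that comparison 38.8% of all genes tested did not overlap, so this choice does not set the 3 apart. The sequences are those of RefSeq on GRCm38.p6, written 5′ to 3′ on the strand of the gene, and capitals mark AGGTCA on that strand or TGACCT, its reverse complement. Pnpla2 lies at chr7:141454938-141455187 on the plus strand, Abhd5 at chr9:122351366-122351615 on the plus strand, Cpt1a at chr19:3323051-3323300 on the plus strand and Cpt1c at chr7:44974852-44975101 on the minus strand.
Pnpla2: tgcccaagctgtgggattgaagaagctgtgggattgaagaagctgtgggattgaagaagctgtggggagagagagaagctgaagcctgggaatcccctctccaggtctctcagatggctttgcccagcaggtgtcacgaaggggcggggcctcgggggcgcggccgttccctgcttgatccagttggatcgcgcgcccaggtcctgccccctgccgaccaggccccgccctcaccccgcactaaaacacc
Abhd5: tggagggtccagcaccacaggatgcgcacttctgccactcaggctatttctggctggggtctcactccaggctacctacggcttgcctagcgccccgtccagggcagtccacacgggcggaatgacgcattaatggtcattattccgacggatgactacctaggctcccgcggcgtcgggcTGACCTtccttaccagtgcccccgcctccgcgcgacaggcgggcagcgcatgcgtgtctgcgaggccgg
Cpt1a: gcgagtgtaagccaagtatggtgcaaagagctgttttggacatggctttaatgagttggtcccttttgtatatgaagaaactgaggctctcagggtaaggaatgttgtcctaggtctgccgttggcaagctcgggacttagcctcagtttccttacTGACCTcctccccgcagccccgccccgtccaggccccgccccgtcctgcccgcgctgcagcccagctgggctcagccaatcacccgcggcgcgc
Cpt1c: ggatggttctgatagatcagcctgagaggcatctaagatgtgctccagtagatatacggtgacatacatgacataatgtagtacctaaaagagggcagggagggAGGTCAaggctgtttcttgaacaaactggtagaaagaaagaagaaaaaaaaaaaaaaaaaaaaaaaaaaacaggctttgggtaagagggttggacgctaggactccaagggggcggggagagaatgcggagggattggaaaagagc

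The hexamer begins 69 bases before the start in Abhd5, 94 in Cpt1a and 146 in Cpt1c, and it is not among the 250 bases of Pnpla2. Windows of the same length were found for all 10 genes, with 2 starts for Lipe. The hexamer was in the windows of 5 genes, Acadm and Plin2 besides the 3 above, and in 14.0% of the 32851 promoters of the genome. The direct repeat AGGTCANAGGTCA, which holds the hexamer on both sides of a spacer and was searched on both strands, was in none of the member windows and in 0.0335% of all promoters. GGGCGG, a GC box, was in the windows of 8 of the 10 genes on either strand, and in 32.7% of all promoters. A match of letters is a description of the window and not a bound site.

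Counted reads ran from 15655156 to 26284661 per library. Ob + RSV 2, C 2 and Ob 1 had reads for 24450, 25979 and 26123 genes, and the other 9 libraries for 28632 to 38081, so results were also computed without these 3. Ob + EAE 1, Ob + EAE 2 and Ob + CUR 1 had the most, with 37165, 38081 and 37598 genes, against at most 36541 in C, Ob and Ob + RSV. The summed level of 8 astrocyte markers was 788 CPM (counts per 1000000 counted reads) in C 3 and 1365 CPM in Ob 3, against 2107 to 3259 CPM in the other 10 libraries. The 8 endothelial and mural markers summed to 106 to 198 CPM in the 9 libraries of C, Ob and Ob + RSV, and to 345 to 391 CPM in the other 3. All 12 hypothalamic markers had reads, but in Ob + CUR oxytocin (Oxt), vasopressin (Avp) and orexin (Hcrt) stood at 3.96, 8.26 and 2.02 CPM, below the lowest other library at 199, 244 and 21.2 CPM. In Ob + RSV 3 Pomc stood at 2.49 CPM, against 28.8 CPM or more elsewhere. The adipocyte list summed to 39.1 to 85.0 CPM, nearly all of it the widely expressed receptor gene Adipor2 (37.1 to 84.6 CPM), while Retn reached 3.24 CPM in Ob 1, Adipoq was at 0.42 CPM or less and Lep had under 10 reads in all. In bulk tissue, fewer cells of a type and less RNA per cell cannot be told apart.

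Per kilobase of exon, the neuronal Cpt1c was the most abundant of the 10 genes, at 22.7 ± 4.05 RPKM (CPM per kilobase of exon, mean ± SD, n = 12 libraries). Pnpla2 followed at 11.2 ± 4.36 RPKM and Acadm at 9.38 ± 1.04 RPKM. Cpt2 (4.94 ± 1.47), Plin3 (4.79 ± 1.11), Plin2 (3.40 ± 1.23), Cpt1a (3.16 ± 0.98) and Lipe (2.46 ± 0.40) made a middle group, also in RPKM. Abhd5 stood at 1.31 ± 0.38 RPKM and Ppara at 0.26 ± 0.17 RPKM, the lowest. Between neighbours in this order, the libraries did not overlap for Acadm above Cpt2 and for Abhd5 above Ppara. Cpt1c was above Pnpla2 within each of the 12 libraries although their ranges overlapped. Pnpla2 was above Acadm in 7 of 12 libraries, Cpt2 above Plin3 in 8 and Plin2 above Cpt1a in 7, so these neighbours did not differ beyond their spread. Plin3 was above Plin2 in 11 libraries, Cpt1a above Lipe in 9 and Lipe above Abhd5 in 11, with ranges that overlapped. The 2 carnitine palmitoyltransferase 1 genes were thus far apart in level, with the brain isoform above the widely expressed Cpt1a in all 12 libraries.

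**Figure D1:**
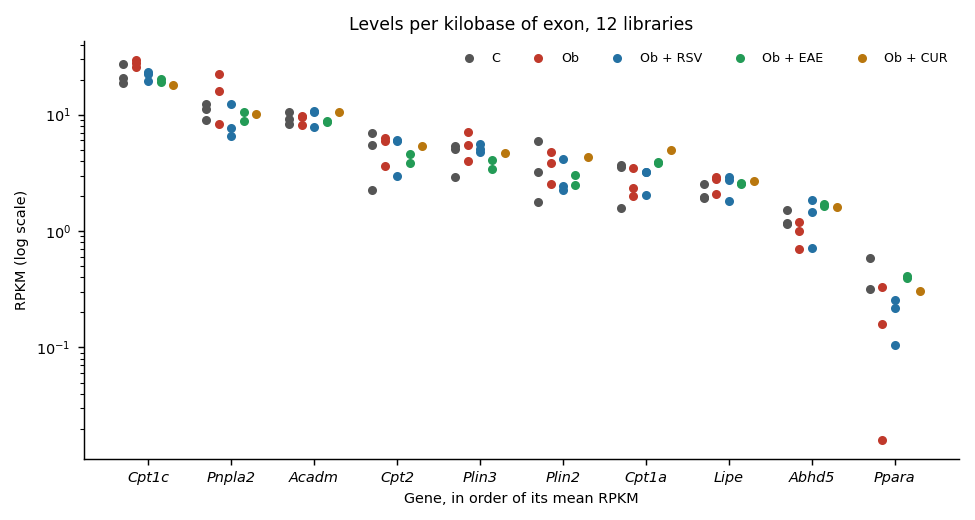
RPKM of each gene (vertical log axis) in each of the 12 libraries, with genes ordered by mean RPKM and groups in color. Cpt1c lies at the top and Ppara at the bottom, where C 3, with 0 reads of Ppara, has no point.

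The lipase gene Pnpla2 was the most variable of the genes with over 1000 reads, with a coefficient of variation of 38.8% over the 12 libraries. Its levels were 37.4, 33.5 and 26.9 CPM in C, 68.1, 47.9 and 24.9 CPM in Ob, 37.2, 19.9 and 23.1 CPM in Ob + RSV, 31.6 and 26.4 CPM in Ob + EAE, and 30.3 CPM in Ob + CUR. Ob 1 and Ob 2 lay above all other libraries, whereas Ob 3 lay below every C library. The mean was 47.0 ± 21.6 CPM in Ob and 32.6 ± 5.27 CPM in C (SD, n = 3 each), so the groups overlapped.

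Lipe, which encodes hormone-sensitive lipase, varied less. It stood at 14.9, 11.3 and 11.7 CPM in C, 16.5, 17.2 and 12.3 CPM in Ob, 16.2, 17.1 and 10.8 CPM in Ob + RSV, 15.1 and 15.3 CPM in Ob + EAE, and 15.7 CPM in Ob + CUR. No group stood apart, except that both Ob + EAE libraries were above the 3 of C, and the single Ob + CUR library was above those of C and Ob + EAE. Abhd5, the coactivator of ATGL, stood at 9.02, 7.04 and 6.82 CPM in C, 4.18, 7.19 and 5.96 CPM in Ob, 8.68, 4.23 and 11.1 CPM in Ob + RSV, 10.1 and 9.74 CPM in Ob + EAE, and 9.57 CPM in Ob + CUR. Its Ob + EAE libraries lay above those of both C and Ob. Ob 1, the highest library for Pnpla2, was the lowest for Abhd5.

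The droplet coat gene Plin2 varied most within C, at 11.3, 20.7 and 6.20 CPM. It stood at 16.9, 13.5 and 8.94 CPM in Ob, 14.7, 7.92 and 8.55 CPM in Ob + RSV, 10.7 and 8.79 CPM in Ob + EAE, and 15.2 CPM in Ob + CUR. The lowest and the highest of the 12 libraries for Plin2 were both controls. Plin3, a perilipin that moves between cytosol and droplet, stood at 20.4, 19.1 and 11.0 CPM in C, 27.0, 20.8 and 15.1 CPM in Ob, 19.1, 21.1 and 17.9 CPM in Ob + RSV, 15.4 and 13.0 CPM in Ob + EAE, and 17.7 CPM in Ob + CUR. C 3 was the lowest library for both perilipins.

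Of the carnitine system, Cpt1c had the highest levels. Its levels were 115, 104 and 153 CPM in C, 156, 166 and 145 CPM in Ob, 130, 126 and 109 CPM in Ob + RSV, 113 and 107 CPM in Ob + EAE, and 100.4 CPM in Ob + CUR. All 3 Ob libraries lay above all libraries of the 3 treated groups, and C 3 lay within the range of Ob. Cpt1a, the isoform that controls entry of fatty acids into mitochondria, stood at 28.2, 27.1 and 12.1 CPM in C, 15.2, 26.6 and 17.8 CPM in Ob, 24.6, 15.7 and 24.8 CPM in Ob + RSV, 30.1 and 29.5 CPM in Ob + EAE, and 37.8 CPM in Ob + CUR. The Ob + EAE and Ob + CUR libraries were the 3 highest of the 12, and C 3 was the lowest.

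Cpt2, which rebuilds acyl-CoA inside the mitochondrion, stood at 13.1, 16.5 and 5.41 CPM in C, 15.2, 14.3 and 8.69 CPM in Ob, 14.5, 14.1 and 7.05 CPM in Ob + RSV, 11.0 and 9.19 CPM in Ob + EAE, and 12.8 CPM in Ob + CUR. Apart from the single Ob + CUR library, which lay above both of Ob + EAE, all groups overlapped with the others. C 3 was again the lowest. Acadm, the medium-chain acyl-CoA dehydrogenase, was the steadiest of the 10 genes, from 30.8 CPM in Ob + RSV 2 to 41.9 CPM in Ob + RSV 3, with a coefficient of variation of 11.1%. Its group means ran from 34.2 CPM in Ob + EAE to 38.1 CPM in Ob + RSV, and to 41.1 CPM in the single Ob + CUR library.

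Ppara was scarce, with 249 reads over all 12 libraries. The reads numbered 52, 22 and 0 in C, 11, 22 and 1 in Ob, 10, 19 and 17 in Ob + RSV, 34 and 33 in Ob + EAE, and 28 in the Ob + CUR library. C 3, the library with the lowest astrocyte marker level, had none, which allows up to 3 reads or 0.141 CPM by counting error, and Ob 3, the next lowest for these markers, had 1. Control libraries thus held both the lowest and the highest level of Ppara, and its differences carried the widest intervals of the 10 genes.

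**Figure D2:**
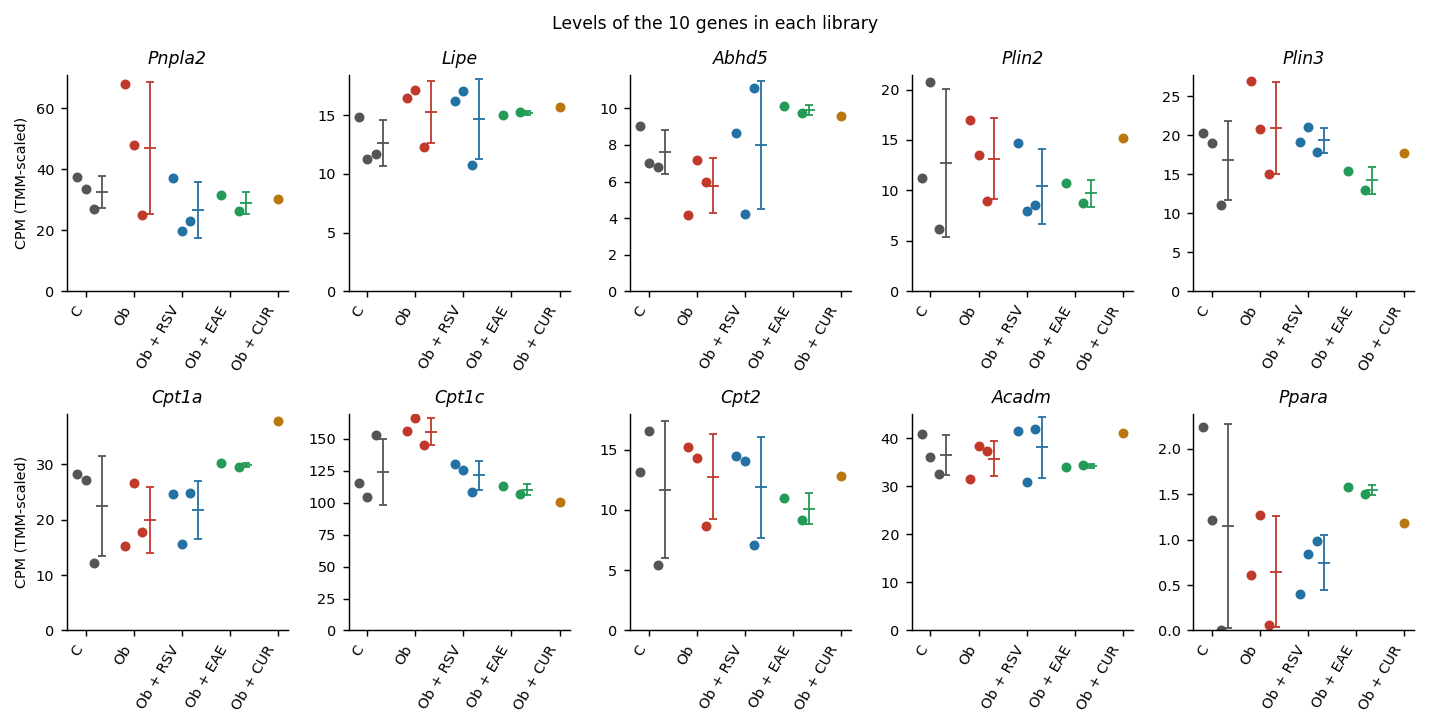
CPM scaled by TMM (vertical axes, from 0) of the 10 genes in each library, with points by group and the mean ± SD beside groups of 2 or 3 libraries. The 3 Ob points of Pnpla2 spread from 24.9 to 68.1 CPM, and those of Cpt1c lie above all points of the treated groups.

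For Ob vs. C, the question was whether the HFD changed the level of these genes. Of the 10 genes 6 were higher and 4 lower in Ob, with a median log2FC of 0.07, against 0.00 over all 33534 genes tested. A gene was called if edgeR's quasi-likelihood test gave an adjusted p under 0.05 and its log2FC was 1 or more, or −1 or less. No member was called, and none had an unadjusted p under 0.05, against 2.75% of all genes. The call rule picked 0 genes in all (0.0%), and DESeq2 also called 0. The largest difference among the genes with over 1000 reads was that of Pnpla2, with a log2FC of 0.51 (SE 0.28, 95% CI −0.07 to 1.08, edgeR adjusted p = 1). It was 0.15 without Ob 1 and 0.81 without Ob 3. Values were 0.31 for Cpt1c (SE 0.20), 0.30 for Plin3 (SE 0.28), 0.26 for Lipe (SE 0.28) and −0.42 for Abhd5 (SE 0.39). Without C 3, 4 members were higher and 6 lower, and the median was −0.19. The intervals of Acadm (−0.50 to 0.40), Cpt1a (−0.80 to 0.40), Lipe, Plin2, Plin3, Cpt1c and Cpt2 stayed between a log2FC of −1 and 1. Those of Pnpla2 and Abhd5 (−1.21 to 0.37) passed 1 or −1. That of Ppara (−3.23 to 1.53) was too wide to show a change of that size or its absence. No gene had groups without overlap, against 7.66% of all genes tested. On CPM by plain column totals Abhd5 was the sole exception, lower in all 3 Ob libraries than in C. The summed neuron markers were lower in Ob (2903 to 3136 CPM) than in C (3171 to 3459 CPM) without overlap. Of its single markers, only Syt1 and Slc17a6 did not overlap, and the part of this list was not tested.

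For Ob + RSV vs. Ob, which asks whether resveratrol changes these genes under obesity, 4 of the 10 genes were higher and 6 lower, with a median log2FC of −0.08 (0.00 over all genes tested). The median was 0.01 without Ob 1 or without Ob 2, and 0.04 without the 3 libraries with the fewest detected genes. Again 0 members were called, as were 0 of all genes (0.0%) by edgeR and 0 by DESeq2. Pnpla2 alone had an unadjusted p under 0.05, against 3.16% of all genes. Its mean was 26.7 ± 9.20 CPM in Ob + RSV (n = 3) and 47.0 ± 21.6 CPM in Ob, a log2FC of −0.82 (SE 0.28, 95% CI −1.39 to −0.24, edgeR adjusted p = 1). The difference rested largely on Ob 1 and fell to −0.44 without that library, and to −0.26 without the 3 libraries with the fewest detected genes, of which Ob 1 is 1. Cpt1c was lower in every Ob + RSV library than in every Ob library, at 122 ± 11.3 CPM against 156 ± 10.6 CPM, a log2FC of −0.36 (SE 0.20, 95% CI −0.77 to 0.06, edgeR adjusted p = 1). Groups without overlap were found in 6.95% of all genes. The value of Cpt1c ran from −0.40 to −0.29 when each library was left out in turn. Abhd5 had a log2FC of 0.47 (SE 0.39) and Plin2 of −0.34 (SE 0.36), and the other 6 lay between −0.11 and 0.20. The low anterior pituitary list was higher in Ob + RSV (3.12 to 4.09 CPM) than in Ob (2.03 to 2.42 CPM) without overlap, and its part was not tested.

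The comparison shares the Ob libraries with Ob vs. C, so the opposite signs of Pnpla2 (0.51 and −0.82), Cpt1c (0.31 and −0.36) and Abhd5 (−0.42 and 0.47) are not independent. For Ob + RSV vs. C, which does not use Ob libraries in its difference, 5 genes were higher and 5 lower, with a median log2FC of −0.02 (0.00 over all genes tested). No member was called by edgeR or DESeq2 (0.0% of all genes called by edgeR), none had an unadjusted p under 0.05 (2.87% of all genes) and none had groups without overlap (5.43% of all genes). Values for Pnpla2, Cpt1c and Abhd5 were −0.31 (SE 0.28), −0.05 (SE 0.20) and 0.05 (SE 0.38). The ependymal list was lower in Ob + RSV (34.1 to 40.0 CPM) than in C (67.7 to 68.8 CPM) without overlap, and its part was not tested.

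**Figure D3:**
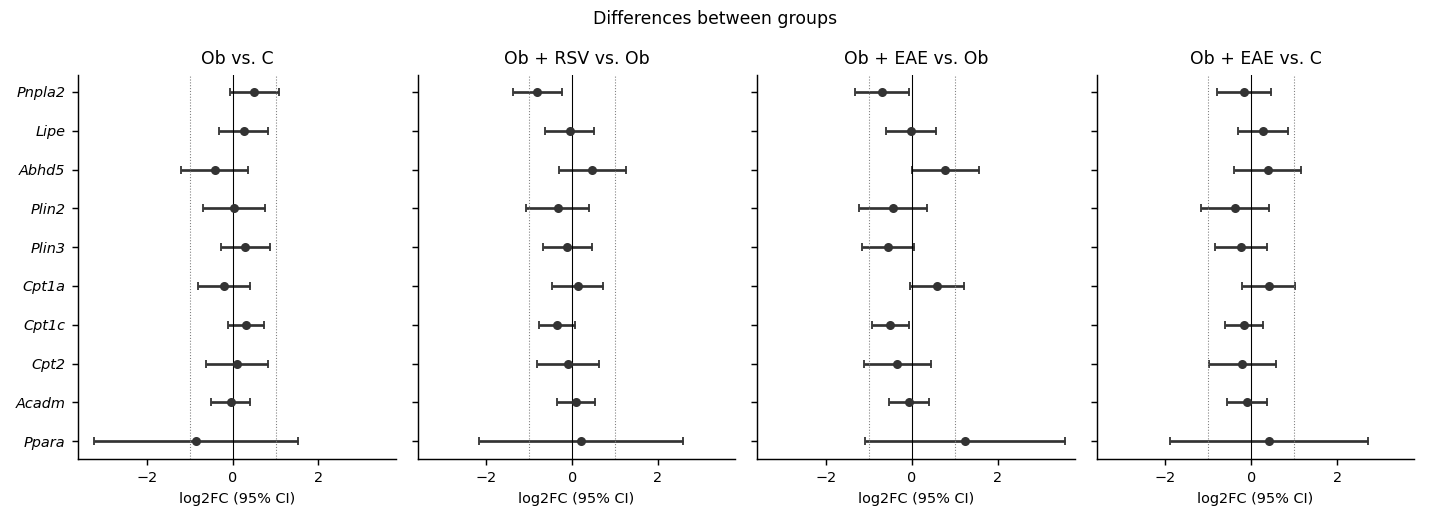
log2FC (horizontal axes) of each gene with its 95% CI in 4 comparisons, where dotted lines mark the log2FC of 1 that a call required. Most intervals include 0, and that of Ppara is the widest in each panel.

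For Ob + EAE vs. Ob, which asks the same of the garlic extract, 3 genes were higher and 7 lower, with a median log2FC of −0.20 (0.05 over all 36164 genes tested), and 0 members were called, against 1.84% of all genes. DESeq2 also called 0 members. Pnpla2, Abhd5 and Cpt1c had an unadjusted p under 0.05, against 13.4% of all genes. Cpt1c was lower in both Ob + EAE libraries than in all of Ob, at 110 ± 4.25 CPM (SD, n = 2), a log2FC of −0.50 (SE 0.21, 95% CI −0.94 to −0.06, edgeR adjusted p = 0.272). Abhd5 was higher in both, at 9.93 ± 0.27 CPM against 5.77 ± 1.51 CPM, a log2FC of 0.78 (SE 0.38, 95% CI 0.00 to 1.56, edgeR adjusted p = 0.371). Cpt1a was also higher in both, at 29.8 ± 0.40 CPM against 19.9 ± 5.97 CPM, a log2FC of 0.59 (SE 0.30, edgeR adjusted p = 0.422). Ppara was the fourth gene without overlap, a log2FC of 1.24 with an SE of 1.14, and groups without overlap were found in 38.8% of all genes.

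Pnpla2 had a log2FC of −0.70 in this comparison (SE 0.31, edgeR adjusted p = 0.297), and its level in Ob + EAE lay within the range of Ob. The log2FC was −0.29 without Ob 1, and −0.98 without Ob 3 with an adjusted p of 0.0457, which stays under the fold required. Plin3 (−0.56, SE 0.30), Plin2 (−0.43, SE 0.39) and Cpt2 (−0.33, SE 0.38) were lower with overlap, and Lipe and Acadm were at −0.01 and −0.06. The endothelial and mural markers differed between the same libraries (345 to 348 CPM in Ob + EAE, 130 to 198 CPM in Ob). So did the neuron list (3384 to 3424 against 2903 to 3136 CPM) and the choroid plexus list (37.9 against 18.4 to 31.6 CPM), both higher in Ob + EAE. The oligodendrocyte list (5111 to 5482 against 6780 to 7420 CPM), the tanycyte list (39.8 to 41.6 against 71.2 to 103 CPM) and the hypothalamic list (1096 to 1298 against 1514 to 3444 CPM) were lower in Ob + EAE, without overlap. More genes were detected in Ob + EAE (37165 and 38081) than in Ob (26123 to 32664). Single markers did not all follow these sums. Of the neuron list, Rbfox3, Syt1, Slc17a6 and Gad2 were higher in Ob + EAE without overlap, whereas Snap25, Tubb3, Slc32a1 and Gad1 overlapped. Clic6 made up most of the choroid plexus sum in Ob + EAE (25.7 and 24.9 CPM), and Folr1 was lower there. Sim1, of the hypothalamic list, was higher in Ob + EAE. The part of these markers and of detection in the differences was not tested.

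Against C, Ob + EAE had 4 genes higher and 6 lower, with a median log2FC of −0.13 (0.05 over all genes tested). Both without C 2 and without the 3 libraries with the fewest detected genes, 6 were higher and 4 lower, with a median of 0.12. No member was called by edgeR, where 0.0138% of all genes were, or by DESeq2, and none had an unadjusted p under 0.05 (4.35% of all genes). Lipe (log2FC 0.27, SE 0.29), Abhd5 (0.38, SE 0.38) and Cpt1a (0.41, SE 0.30) were higher in both Ob + EAE libraries than in all of C, and 30.1% of all genes had groups without overlap. The value of Cpt1a was 0.09 without C 3. The comparison shares the Ob + EAE libraries with the one before it. The endothelial and mural (106 to 160 CPM in C), tanycyte (46.9 to 76.8 CPM in C), ependymal (67.7 to 68.8 CPM in C, 29.0 to 32.1 CPM in Ob + EAE) and hypothalamic lists (1534 to 2230 CPM in C) did not overlap between these groups either, and their part was not tested. Sim1, of the hypothalamic list, was higher in Ob + EAE than in C although the sum was lower.

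Ob + CUR is 1 library, so no test was made and its intervals (exact Poisson) cover counting error only. Cpt1a was higher there than in any other library, at 37.8 CPM (95% CI 35.3 to 40.3, 896 reads), and Cpt1c lower than in any other, at 100.4 CPM (96.4 to 105, 2382 reads). The other 8 genes lay within the range of the other 11 libraries, with Pnpla2 at 30.3 CPM (28.1 to 32.6) and Abhd5 at 9.57 CPM (8.36 to 10.9). This library also had the highest summed astrocyte level, 3259 CPM, and the low Oxt, Avp and Hcrt given above, and their part in these levels was not tested.

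Around the 10 genes, 5 lists of related genes were counted in the same fits. Of 28 other genes of mitochondrial oxidation, 20 were higher and 8 lower in Ob vs. C, with a median log2FC of 0.11, against 48.8% of all genes higher and a median of 0.00. The list had 0 calls, and 4 genes had an unadjusted p under 0.05, all higher (1.35% of all genes). They were Acads and Acaa2, of the β-oxidation spiral, Eci1, which handles unsaturated fatty acids, and Etfb, which passes electrons from the dehydrogenases to the respiratory chain. Etfb stood at 6.31, 8.59 and 11.8 CPM in C and 21.8, 14.3 and 12.0 CPM in Ob, a log2FC of 0.84 (SE 0.33, edgeR adjusted p = 1). Acaa2 stood at 25.1, 22.8 and 11.7 CPM in C and 40.9, 30.0 and 21.5 CPM in Ob, a log2FC of 0.61 (SE 0.28, edgeR adjusted p = 1). Etfb did not overlap between C and Ob, whereas Acaa2 did. The value of Etfb was 0.56 without Ob 1, and that of Acaa2 was 0.34 without C 3. Without the 3 libraries with the fewest detected genes, 23 of the 28 were higher and 0 had an unadjusted p under 0.05.

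In the same list, Ob + RSV vs. Ob gave 10 higher and 18 lower (median −0.03), and Ob + EAE vs. Ob 9 higher and 19 lower (median −0.19), with 0 calls in both. Without the 3 libraries with the fewest detected genes, Ob + RSV vs. Ob split 17 to 11 the other way (median 0.06). Etfb led both, with a log2FC of −0.71 (SE 0.33, edgeR adjusted p = 1) at 10.4, 13.2 and 5.66 CPM in Ob + RSV, and of −1.30 (SE 0.38, edgeR adjusted p = 0.0620) at 7.15 and 5.87 CPM in Ob + EAE. The first of these was −0.42 without Ob 1. Under 5 of 13 alternatives Etfb passed the call rule in Ob + EAE vs. Ob, with an adjusted p from 0.00112 to 0.824 over the 13. All 3 comparisons share the Ob libraries. Mlycd, which degrades the CPT1 inhibitor malonyl-CoA, had −0.47 (SE 0.24) in Ob + RSV vs. Ob, and Hadhb, a subunit of the trifunctional protein, −0.62 (SE 0.26) in Ob + EAE vs. Ob, both with an edgeR adjusted p above 0.05.

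Of the other genes of lipolysis and the lipid droplet, 27 of 28 were tested in the 9 libraries. They split 16 higher to 11 lower in Ob vs. C (median log2FC 0.08), 10 to 17 in Ob + RSV vs. Ob (median −0.18) and 13 to 15 among 28 in Ob + EAE vs. Ob (median −0.03), with 0 calls in each. Without the 3 libraries with the fewest detected genes all 3 medians took the other sign, at 12 to 14 (median −0.07), 15 to 11 (median 0.04) and 15 to 13 (median 0.07). Plin4, a perilipin, ranged from 1.93 to 21.7 CPM in C, from 1.74 to 22.8 CPM in Ob and from 2.37 to 9.70 CPM in Ob + RSV, with a log2FC of −1.36 in Ob + RSV vs. Ob (SE 0.63, edgeR adjusted p = 1). Its spread within C was as wide as that within Ob. The log2FC of Bscl2, which encodes seipin, was 0.32 (SE 0.21) between Ob and C, and its level in Ob 1 was 209 CPM, against 108 to 171 CPM in the other 11 libraries. Aqp7, a glycerol channel that the study itself picked from these libraries, had 38 reads in Ob 1, 0 and 5 in the other Ob libraries and 1, 0 and 4 in C. Plin1, the perilipin of adipocytes, had 5, 4 and 2 reads in the Ob libraries and 0 in each treated with RSV, too few for a fold. In Ob + EAE vs. Ob, Cidea, a droplet fusion protein, had a log2FC of −1.23 (SE 0.46, edgeR adjusted p = 0.177) and Gpam, an enzyme of triglyceride synthesis, one of 0.63 (SE 0.25, edgeR adjusted p = 0.225). The value of Cidea was −0.79 without Ob 1. Of the 13 alternatives to this fit, Plin4 was called under 3 (no filter beyond 1 read, the replicate block and without Ob 3) and Cidea under 1 (the replicate block). With the replicate block Plin4 was also called in Ob + EAE vs. C.

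The 16 peroxisomal genes split 7 to 9 (median −0.10), 10 to 6 (median 0.05) and 9 to 7 (median 0.16) in Ob vs. C, Ob + RSV vs. Ob and Ob + EAE vs. Ob, with 0 calls. Without the 3 libraries with the fewest detected genes the first 2 medians were 0.02 and −0.01. The thiolase genes Acaa1b and Acaa1a and the isomerase gene Ech1 were among the smallest p-values, with log2FC values of 0.72 for Acaa1b and 0.42 for Ech1 in Ob vs. C, −0.31 for Acaa1a in Ob + RSV vs. Ob, and −0.65 for Ech1 and −0.52 for Acaa1a in Ob + EAE vs. Ob. Abcd2, a transporter of very long-chain fatty acids, had 0.51 in Ob + RSV vs. Ob. The adjusted p by edgeR was 1 for each in the comparisons with 3 libraries a group, and 0.186 and 0.239 for Ech1 and Acaa1a in Ob + EAE vs. Ob. Acaa1a and Acaa1b are close copies whose reads may be split between them. The 7 ketone body genes split 3 to 4 (median −0.10), 6 to 1 (median 0.12) and 4 to 3 (median 0.04), with 0 calls and no unadjusted p under 0.05. The ketone transporter gene Slc16a7 had log2FC values of −0.27 in Ob vs. C, 0.25 in the comparison of Ob + RSV with Ob and 0.56 in that of Ob + EAE with Ob, with edgeR adjusted p-values of 1, 1 and 0.452. The value for Ob + RSV was −0.10 without Ob + RSV 3, the opposite sign.

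The list of PPAR partners and targets held the single call among the 5 lists. It came in Ob + EAE vs. Ob, where 1.84% of all genes were called, so a single call does not set this list apart. Of its 28 genes 25 were tested, with 12 higher and 13 lower in Ob vs. C (median −0.06), 11 and 14 in Ob + RSV vs. Ob (median −0.06), and 13 and 12 in Ob + EAE vs. Ob (median 0.13). The first median was 0.15 without C 1, the second 0.11 without the 3 libraries with the fewest detected genes, and the third −0.02 with the replicate block. Ppargc1b, a coactivator of PPARs and of mitochondrial genes that the study also picked from these libraries, stood at 3.56, 6.65 and 2.07 CPM in C, 1.59, 1.39 and 2.05 CPM in Ob, 2.46, 6.81 and 3.76 CPM in Ob + RSV, 8.83 and 12.3 CPM in Ob + EAE, and 7.55 CPM in Ob + CUR. The 3 Ob libraries, with 29, 24 and 33 reads, were the lowest of the 12 and the 2 Ob + EAE libraries the highest. Ob 3 lay below C 3 (44 reads) by less than counting error. It rose in Ob + EAE vs. Ob with a log2FC of 2.65 (SE 0.50, edgeR adjusted p = 0.00678), while Ob vs. C gave −1.30 (SE 0.55) and Ob + RSV vs. Ob gave 1.38 (SE 0.55), each with an edgeR adjusted p of 1. These were −0.77 without C 2 and 0.89 without Ob + RSV 2. The call was held under 10 of 13 alternatives, with an edgeR or DESeq2 adjusted p from 5.83e-06 to 0.181 over the 13. It was lost without Ob 1 (log2FC 2.66, adjusted p = 0.0632), without Ob + EAE 2 (2.43, adjusted p = 0.181) and without the 3 libraries with the fewest detected genes (2.63, adjusted p = 0.146). Ncoa1, another coactivator, had a log2FC of 0.99 in Ob + EAE vs. Ob (SE 0.24, edgeR adjusted p = 0.0251), just under the fold required and called under 4 of 13 alternatives, and −0.53 (SE 0.23) in Ob vs. C. Its level was 46.3, 62.2 and 52.7 CPM in Ob and 100.4 and 113 CPM in Ob + EAE. Ppargc1a, the sister gene of Ppargc1b, had 0.58 (SE 0.25, edgeR adjusted p = 1) in Ob + RSV vs. Ob.

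**Figure D4:**
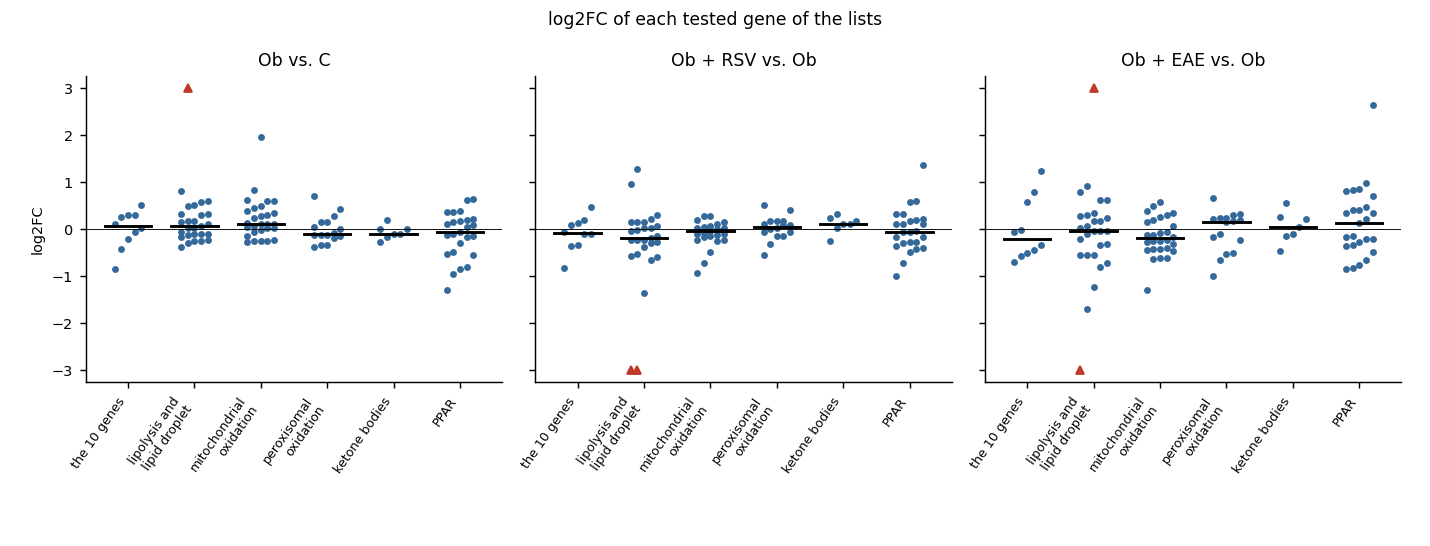
log2FC (vertical axes) of each tested gene of the 10 genes and of the 5 lists in 3 comparisons, with the median as a bar. Triangles stand for Aqp7, Plin1 and Fabp4, whose fitted values lie beyond 3 and rest on few reads, and the highest point at the right is Ppargc1b at 2.65.

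Across the 12 libraries, some of the 10 genes varied together. Over the 45 pairs, Pearson's r on log2 CPM passed an adjusted p of 0.05 (permutation test, two-sided) for Plin2 and Cpt2 (r = 0.81, adjusted p = 0.0362) and for Plin3 and Cpt2 (r = 0.79, adjusted p = 0.0362). Spearman's rho was 0.79 and 0.77, with an adjusted permutation p of 0.0706 for both. Without the 2 libraries farthest from the median of the perilipin, r was 0.67 and 0.63. Cpt1a went with Ppara (r = 0.75) and Abhd5 (r = 0.75) and against Cpt1c (r = −0.69), with adjusted permutation p-values of 0.0706, 0.0706 and 0.0964, and rho was 0.81, 0.75 and −0.72. All pairs share the library, its dissection and its depth. Within C, Ob and Ob + RSV, after removal of group means, r was 0.83 for Plin2 and Cpt2, 0.85 for Plin3 and Cpt2, and −0.61 for Cpt1a and Cpt1c.

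The summed astrocyte marker level moved with part of this pattern. C 3, lowest for the astrocyte markers, was the lowest of the 12 libraries for 5 of the 10 genes, Plin2, Plin3, Cpt1a, Cpt2 and Ppara. Against the log2 of the summed astrocyte level, r was 0.79 for Cpt1a and 0.88 for Ppara (adjusted permutation p = 0.0126 for both, over 10 genes), 0.70 for Plin2 (adjusted p = 0.0182) and 0.72 for Cpt2 (adjusted p = 0.0354). The permutations shuffled libraries across groups. The share of all genes with such an r, or with their lowest level in C 3, was not computed. These values therefore do not set the 10 genes apart from other genes. Spearman's rho for Cpt1a, Ppara, Plin2 and Cpt2 was 0.69, 0.54, 0.67 and 0.47, with adjusted permutation p-values of 0.0787, 0.153, 0.0787 and 0.194. Without C 3 and Ob 3 the r of Cpt1a was 0.75 and that of Plin2 was 0.61, but that of Ppara fell to 0.19 and that of Cpt2 to 0.12, so the last pair rests on those libraries. For Plin3 r was 0.61 (adjusted permutation p = 0.0776) and −0.16 without C 3 and Ob 3. In the same order it was 0.39 and −0.31 for Lipe, 0.45 and 0.74 for Acadm, 0.33 and 0.56 for Abhd5, and 0.31 and 0.20 for Pnpla2. The neuronal Cpt1c ran the other way, with an r of −0.54 (adjusted permutation p = 0.0895). Without C 3, Cpt1a had a log2FC of −0.50 in Ob vs. C in place of −0.20, and Cpt1c 0.48 in place of 0.31. In C 3 the oligodendrocyte markers also split. Mobp (1406 CPM) was there at its highest of the 12 libraries, and Cnp, Mag and Olig1 (229, 108 and 110 CPM) at their lowest. In the paper's sequencing summary, C 3 and Ob 3 had the lowest GC content of the libraries listed. The part of astrocyte content, or of such other differences between libraries, in the differences between groups was not tested.

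**Figure D5:**
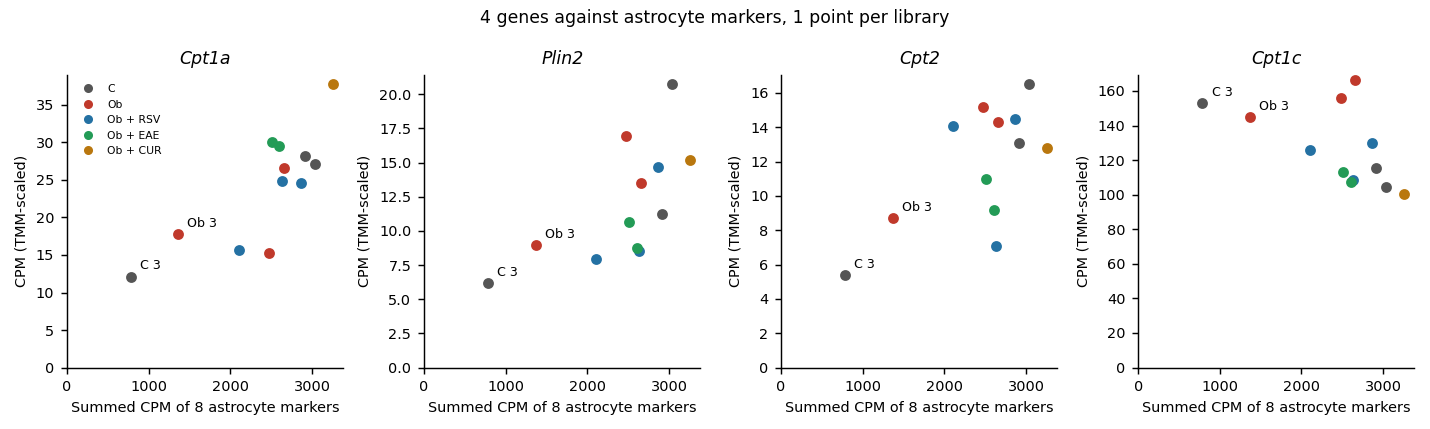
CPM of Cpt1a, Plin2, Cpt2 and Cpt1c (vertical axes) against the summed CPM of 8 astrocyte markers (horizontal axes), 1 point per library. C 3 and Ob 3 lie at the left, at 788 and 1365 CPM of markers, with C 3 lowest for the first 3 genes and in the upper range for Cpt1c.

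For each of the 10 genes, the most similar pattern among 23833 other genes was found by Pearson's r on log2 CPM over the 12 libraries, given without p. Cpt1a went most closely with Slc41a1 (r = 0.99, and 0.99 without the 2 farthest libraries), a magnesium transporter gene. Cpt1c went with Ring1 (r = 0.96), Pnpla2 with Ubald1 (0.96), Abhd5 with Atp1b1 (0.97), Plin3 with Sult1a1 (0.97) and Cpt2 with Cpsf3 (0.98). Plin2 went with Vps53 (0.94), Lipe with Slc41a3 (0.93), Acadm with Lix1 (0.91) and Ppara with Tns3 (0.95, and 0.75 without the 2 farthest libraries). Of these 10 matches, that of Ppara fell most without the 2 libraries. Each match was picked as the highest r of 23833 genes in the same libraries, so its size is no test of likeness.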

How the data were processed

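Poly(A) RNA of 12 hypothalami was sequenced as read pairs from a stranded library kit, 1 library per mouse. The deposited values are whole read counts per gene, which the authors made with HISAT2 v2.0.5 and featureCounts v1.5.0-p3, and the submitters' processing notes name FastQC, featureCounts and GRCm39. For the annotation release, strand setting and treatment of multi-mapping reads, the sources used here give nothing. Symbols came from the reference by gene ID (51486 of 78334 IDs, with 98.1% of counts).

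Differential expression was tested with edgeR 4.0.16 (quasi-likelihood, TMM, genes with at least 10 reads in total, group as the factor) in R 4.3.3, on 9 libraries for C, Ob and Ob + RSV and on 12 for Ob + EAE, with Benjamini-Hochberg adjustment over all genes tested. A call required an adjusted p under 0.05 together with a log2FC of 1 or more, or −1 or less. The SE is the log2FC divided by the square root of F. CPM is scaled by TMM over 12 libraries, RPKM uses exon lengths of GENCODE vM21 by ID, and correlations use log2 CPM (prior count 2) with 100000 permutations. Groups came from the sample labels. Tests and error bars cover differences between mice and counting error.

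Alternatives were RLE and upper quartile scaling, filterByExpr, no filter beyond 1 read, DESeq2 1.42.0, fits on other sets of libraries, no fold minimum, a replicate block, leaving out each library, and plain CPM. The fit without 3 libraries, the astrocyte correlations and the list counts per setting were added after seeing the data. In a simulation of Ob vs. C with 33534 genes, 16, 40, 47 and 49 of 50 changed genes were recovered at a log2FC of 1, 2, 3 and 4, with 10 false calls. Only genes above a minimum mean count were changed, and counts were drawn from the fitted spread of each gene. Libraries that differ in cell content were not simulated, so these rates are not the power of the real comparison. The 10 genes and all lists were chosen with earlier results of these data known. Named list genes are the 2 with the smallest p in each list and comparison. Some results on single genes that this rule names are not reported here. Of 12 marker lists, the astrocyte, endothelial and mural, adipocyte and hypothalamic ones are given above. The others summed over all libraries, in CPM, to 2903 to 4146 (neuron), 4956 to 9217 (oligodendrocyte), 221 to 294 (microglia), 35.0 to 126 (tanycyte), 26.1 to 105 (ependymal), 15.7 to 56.8 (choroid plexus), 60.0 to 262 (red cell) and 0.78 to 15.7 (anterior pituitary). Proteins were not analysed here.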

Additional observations from a re-analysis of the deposited data

How the results depend on the processing

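Of 710 alternative log2FC values of the 10 genes, 653 kept their direction, 57 changed it and 0 became calls. Values that changed direction when single libraries were left out had these ranges over the libraries left out, in Ob vs. C, Plin2 −0.30 to 0.56, Cpt1a −0.50 to 0.0097, Cpt2 −0.24 to 0.43, Acadm −0.13 to 0.050, Ppara −1.79 to 0.083. They were, in Ob + RSV vs. Ob, Lipe −0.19 to 0.11, Plin3 −0.30 to 0.12, Cpt1a −0.027 to 0.40, Cpt2 −0.31 to 0.16, Ppara −0.33 to 1.14. For Ob + RSV vs. C they were Abhd5 −0.27 to 0.36, Plin2 −0.64 to 0.22, Plin3 −0.047 to 0.36, Cpt1a −0.37 to 0.14, Cpt1c −0.16 to 0.12, Cpt2 −0.34 to 0.33, Acadm −0.044 to 0.19, Ppara −1.23 to 0.29. For the garlic extract they were, in Ob + EAE vs. Ob, Lipe −0.14 to 0.12, Acadm −0.11 to 0.032, and, in Ob + EAE vs. C, Plin2 −0.73 to 0.14, Cpt2 −0.57 to 0.10, Acadm −0.20 to 0.020, Ppara −0.20 to 1.35. Without the 3 libraries with the fewest detected genes, the log2FC was 0.11 for Cpt1a and 0.022 for Acadm in Ob vs. C, 0.063 for Plin2 and 0.056 for Plin3 in Ob + RSV vs. Ob, 0.40 for Plin2 and 0.27 for Cpt1a in Ob + RSV vs. C, 0.056 for Lipe in Ob + EAE vs. Ob, and 0.13 for Plin2 and 0.10 for Cpt2 in Ob + EAE vs. C, all of the opposite sign. Lipe in Ob + EAE vs. Ob was at 0.00586 with upper quartile scaling, 0.00635 with no filter beyond 1 read and 7.34e-06 with the groups compared alone. The cause of these changes was not tested.

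The count of all genes called moved more than that of the members, which stayed at 0. Leaving out single libraries gave 0 to 11 genes in Ob vs. C, 0 to 2 in Ob + RSV vs. Ob, 0 to 3 in Ob + RSV vs. C, 18 to 1172 in Ob + EAE vs. Ob (665 with all libraries) and 1 to 9 in Ob + EAE vs. C (5 with all). With no filter beyond 1 read the counts were 35, 11, 32, 1031 and 133 in the same order. In Ob + EAE vs. Ob and Ob + EAE vs. C, filterByExpr gave 77 and 1, and the fit without the 3 libraries gave 1 and 0. In Ob + EAE vs. C, DESeq2 gave 25 and the groups compared alone 22.

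A replicate block on the numbers in the labels gave 50, 10, 35, 1417 and 279 genes. The main fits did not take the numbers as pairs. Deviations of same-numbered libraries correlated at −0.021 to 0.22, over 0.1 in 3 of 9 pairs. Those of other-numbered libraries correlated at −0.20 to 0.10, over 0.1 in 1 of 18 pairs. Whether the numbers mark a shared factor was not tested. With the block, Pnpla2 in Ob + EAE vs. Ob had an adjusted p of 0.00729, under the fold required, and Ppara in Ob + RSV vs. C a log2FC of 0.41, the opposite sign. Low counts limit Ppara most, and groups of 2 or 3 leave SEs of 0.20 to 0.39 for the other 9 genes.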
